A study of Rattus norvegicus with 10 samples.

Results

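Wild-type PCCl3 cells (wt), a permanent line of follicular cells from rat thyroid, formed the unperturbed arm of an siRNA study, and they are described here in 4 separate cultures. Of the 10 arrays of the series, 4 individual arrays carried RNA of siFoxE1 cells labelled with Cy5 and RNA of wt cells labelled with Cy3. Only the Cy3 channels of these 4 arrays were taken for levels, and the siFoxE1 channels served only to check Foxe1. The wt cells had no transfection. For comparison, the Cy3 channels of 4 other arrays held siScramble cells, which had received 25 nM of a non-targeting siRNA pool with DharmaFECT 1. All cultures grew in a modified F-12 medium (Coon's) with donor calf serum and a hormone mixture that includes TSH, insulin and hydrocortisone, and RNA of the transfected cells was taken after 48 h. The labels number the cultures 1 to 4 and call them biological replicates. PCCl3 is 1 cell line, so the spread below is spread between cultures and not between animals, and p-values cover only these samples.

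Thyroid follicular cells secrete thyroglobulin, a very large glycoprotein, and iodinate it to make thyroid hormone. TSH acts on them through cyclic AMP and drives both growth and thyroid gene expression. A secretory cell of this kind folds much protein in the endoplasmic reticulum (ER). When folding falls behind demand, the transcription factors ATF6 and XBP1 raise chaperones and degradation factors, and the kinase PERK raises ATF4 and its target CHOP (Ddit3).

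Each array carried 58717 spots of 30367 probes that were no controls. A probe counted as measured when 3 or more of the 4 wt arrays marked it as well above background, which held for 18409 probes (60.6%). Of these, 11565 had a gene name through their RefSeq accession and stood for 9811 genes, and 6844 had none. Levels are log2 Cy3 intensities after quantile normalization over the 4 channels, with 1 probe, the brightest measured one, for each gene. The depth of an array measurement has no count behind it, so its precision rests on the number of arrays. Repeated spots of 1 probe differed within an array by a median SD of 0.0705 to 0.0740 on the log2 scale. The 10 spiked control RNAs were read on channels scaled to their 75th percentile, not quantile normalized. Their SD was 0.171 to 0.279 between the wt channels, and 0.041 once each array's mean deviation was taken out. Their mean deviations were 0.10, -0.24, -0.09 and 0.23 in cultures 1 to 4. Levels are averages over all cells of a culture, so that a difference in every cell and one in the share of cells that express a gene cannot be told apart. Each culture lay on 1 array, so that culture and array cannot be told apart in the wt samples alone, and all 4 arrays shared a slide and a scan. On all 4 arrays Foxe1 was lower in Cy5 than in Cy3, by log2 -0.53, -0.56, -0.37 and -0.65, which is the direction the dye labels give, although a drawing of the design in the study has the dyes the other way round.

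The cells carried the marks of thyroid follicular cells. Of the 9 follicular markers (among them Tg, Slc5a5, Tshr, Pax8, Nkx2-1, Foxe1, Duox2 and Iyd), all but Iyd, which recycles iodide from iodotyrosines, were measured. The epithelial cadherins Cdh16 and Cdh1 were measured, with means of 8.61 and 6.40, but the probes of Epcam, Krt8 and Krt18 were well above background on 0 of the 4 arrays. A probe that hybridizes poorly and a transcript that is scarce cannot be told apart here. Krt7, outside these markers, was measured at 12.03, 12.67, 12.69 and 12.87. Of a wider epithelial list, 12 of the 20 genes on the array were measured. Krt19, Cldn3, Cldn4 and Cldn7 of that list were well above background on 0 arrays. The listed markers of other cell types were dim or not well above background. Of the fibroblast markers 3 of 9 were measured, with means of 5.33 to 7.05. Of the endothelial markers 2 of the 6 on the array were measured, with means of 3.32 and 6.28. Of the leukocyte markers 5 of 9 were measured, at 4.32 to 5.83, while Ptprc, the common leukocyte antigen, was well above background on 0 arrays. For the parafollicular C cell it was 2 of the 6 on the array, with Calcb at 4.67. Vim, Sparc and Fn1, which these marker lists do not hold, had means of 11.58, 12.97 and 12.42. For comparison, the median level over all 9811 genes was 8.36.

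The brightest probes of unperturbed PCCl3 cells belonged to the protein synthesis machinery. Of the 25 brightest named genes, 23 encode ribosomal proteins, and the other two are Fth1 and Ftl1, the heavy and light chains of the iron store ferritin. Rpl41 stood first with 17.89, 17.89, 17.79 and 17.89 in cultures 1 to 4. Fth1 followed with 17.64, 17.64, 17.89 and 17.79, and Rplp0, a subunit of the ribosomal stalk, had 17.79, 17.72, 17.59 and 17.72. Ftl1 gave 17.16, 16.96, 17.42 and 17.20. The rest included, in order of mean level, Rps12, Rps23, Rps2, Rplp2, Rpl35a, Rpl37a, Rpl19, Rpl10, Rpl24, Rpl13, Rpl21, Rps18, Rpl35, Rps29, Rpl29, Rpl14, Rpl38 and Rpl34. Their means ran from 17.36 down to 16.90, and Rpl10a, the next gene outside this rank, had 16.89, so neighbours in this order differ by less than their spread. Among the 100 brightest genes 61 encode ribosomal proteins. All 25 lay within the brightest 50 on the 1 pooled wt array, where the wt RNA was labelled with Cy5, and over 9811 genes the levels of that array correlated with the wt means at r = 0.99. These points share the probes. Brightness also depends on how well a probe binds, ribosomal protein genes have near-identical processed copies in the genome, and 57 of the 100 brightest probes had no gene name, so the order is one of probes and not of transcripts.

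Secretory, metabolic and cytoskeletal genes followed. Tg, the precursor of thyroid hormone, lay at rank 49 of 9811 with 16.48, 16.60, 16.09 and 16.66. Its range was 1.48-fold. The cytoplasmic actin Actg1 was at 16.72, 16.85, 16.87 and 16.93. Cox6a1, a subunit of cytochrome c oxidase, had 16.58, 17.00, 16.62 and 16.67. The glycolytic enzymes Ldha and Pgam1 had means of 16.16 and 16.12, the elongation factors Eef2 and Eef1g were at 16.40 and 16.27, and the lysosomal protease Ctsb, which cleaves thyroglobulin, was at 15.84. Gnas, which encodes the G protein that couples the TSH receptor to adenylyl cyclase, was at 15.65, 15.76, 15.70 and 15.69. Each of these genes was within 2-fold in all 4 cultures.

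Most genes differed little between cultures. The SD of log2 intensity had a median of 0.262 over all genes, and the range between the highest and the lowest culture had a median of 0.59, or 1.5-fold. Spread was smaller at higher levels, with median SDs of 0.358, 0.271, 0.233 and 0.206 from the dimmest to the brightest quartile of genes. Among genes of the brightest quartile (10.46 and above) the 10 steadiest included Rpl31, Rpl18, Txndc15, B2m, Rps26, Pepd, Ufc1, Eif2s3 and Rpl22. B2m, the light chain of MHC class I, had 14.09, 14.08, 14.10 and 14.07. Pepd, a dipeptidase, had 10.96, 10.93, 10.93 and 10.96. Ufc1, the conjugating enzyme of the ubiquitin-like modifier UFM1, had 10.67, 10.65, 10.64 and 10.62. None of these 10 ranged over more than 0.05. The 25 brightest genes had a median SD of 0.079. Quantile normalization gives every channel the same set of top values and so narrows the spread at the top. With the channels scaled to their 75th percentile instead, the 25 brightest had a median SD of 0.183 and the 10 steadiest ranged over up to 0.41. The plot of level and spread shows where the gene groups described below lie.

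**Figure D1:**
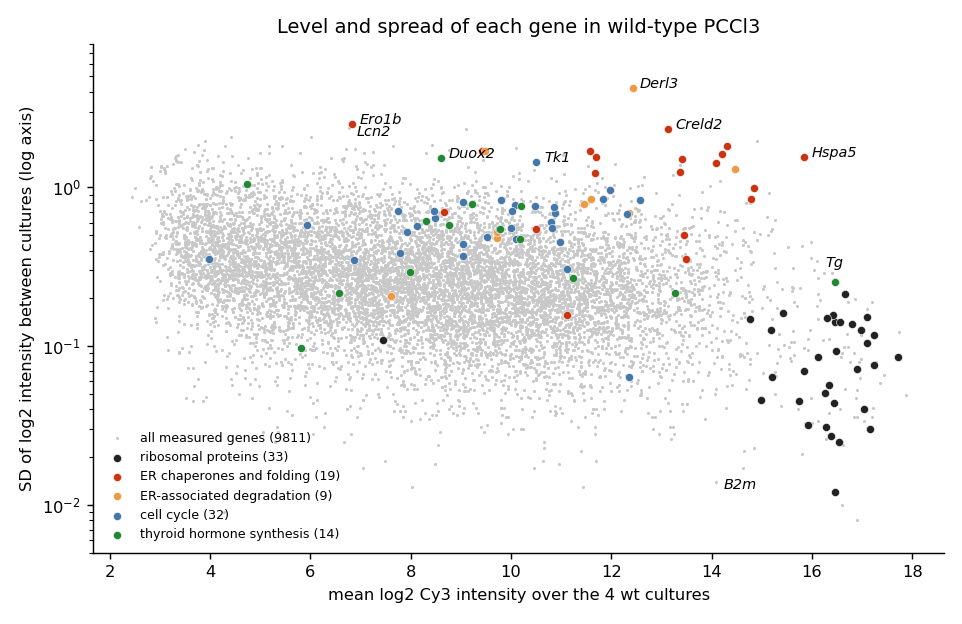
Each point is 1 of 9811 measured genes, with its mean log2 Cy3 intensity over 4 wt cultures on the x axis and the SD of log2 between the cultures on a log y axis. Ribosomal protein genes sit bright and steady at the lower right, genes of ER folding and degradation lie above the median SD of 0.262 except Sil1 (0.16) and Edem2 (0.21), and Derl3 has the largest SD, 4.21.

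The highest and the lowest culture differed by over 2-fold for 2165 of 9811 genes (22.1%), by over 4-fold for 331 genes (3.37%) and by over 16-fold for 16. Culture 2 stood apart from the others. It was the highest or the lowest for 1998 of the 2165 genes (92.3%), highest for 1007 and lowest for 991, against 76.3% of all genes. Levels of culture 2 correlated with those of cultures 1, 3 and 4 at r = 0.9648, 0.9710 and 0.9714 over genes, and the other pairs gave 0.9891 to 0.9948. Pairs with culture 2 differed by over 2-fold for 1265 to 1535 genes and the other pairs for 101 to 307. Without culture 2 the same table held 405 genes over 2-fold (4.13%), against 1637, 2012 and 1837 without culture 1, 3 or 4. On the array of culture 2, 63.5% of spots were well above background, against 63.95 to 66.95% on the others. Its median background was 22.5 against 21 on each of the others, its median signal 88 against 72 to 84, and its within-array SD of repeated spots 0.0709. The part of these scanner values in the difference was not tested. That array carried 282 of the 440 genes that were not well above background on 1 array.

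The siScramble cultures, which the choice of wt channels did not use, were hybridized on separate arrays. Of the 2165 genes 1617 (74.7%) also spanned over 2-fold among the 4 siScramble cultures, where 2558 genes did so in all (26.1%). The same number was highest for 69.5% of the 2165 genes and lowest for 66.9%, against 61.4% and 60.5% of all genes. Deviations from the group mean correlated between same-numbered wt and siScramble cultures at r = 0.509, 0.502, 0.103 and 0.440 for numbers 1 to 4, over 18399 probes. Cultures of different numbers gave -0.376 to 0.273, and wt culture 3 had that highest value with siScramble culture 4, above its value with siScramble culture 3. The points share the probes, and both arrays of a number carried siFoxE1 RNA of that number in Cy5, against which the scanner software had scaled the Cy3 signal. With normexp of the Cy3 median signals, which uses no Cy5 signal but also has another background correction and an offset of 50, the 4 same-numbered values had a mean of 0.575 in place of 0.389. The part of the Cy5 scaling was not tested on its own.

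The culture number was then tested over 4 wt and 4 siScramble channels in a model with number and condition. By limma's moderated F test with Benjamini-Hochberg adjustment, 3879 of 18399 probes (21.1%) passed at an adjusted p of 0.05, and 7975 had an unadjusted p under 0.05. At the gene level 2454 of 9809 passed (25.0%). The test has 3 residual degrees of freedom. Without number 1, 2 or 4 no probe passed, with 5979, 3469 and 6407 probes at an unadjusted p under 0.05 in limma, and without number 3 it was 4871 that passed. The numbers were also taken as pairs on correlations over these same channels. Counts of members that passed are therefore a description, to be read against that 25.0%.

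Genes of protein folding in the ER varied most. Of 20 genes of ER chaperones and folding enzymes 19 had a named probe, and all 19 were measured. Of these, 17 spanned over 2-fold against 22.1% of all genes, and all 19 were lowest in culture 2, against 38.4% of all genes. Their mean levels were 13.43, 10.62, 13.02 and 12.69 in cultures 1 to 4, and 18 of 19 passed the number test against 25.0% of all genes. The median member was 6.72-fold higher in the mean of the other cultures than in culture 2. Culture 1 was the highest for 17 of them, against 26.6% of all genes. In siScramble cells all 19 were again lowest in culture 2, against 31.4% of all genes there. Without culture 2 it was 6 of 19 that spanned over 2-fold, against 4.13% of all genes.

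Hspa5 (BiP), the main Hsp70 chaperone of the ER, had 16.36, 13.53, 16.74 and 16.72. It was one of only 3 among the 100 brightest genes that spanned over 2-fold, with the cytokine Mif and the tubulin Tubb4b. Hsp90b1 (Grp94), the Hsp90 of the ER, had 15.56, 11.86, 15.01 and 14.40. In siScramble cells Hspa5 had 16.62, 13.47, 16.12 and 16.73, so that culture 2 was again far below the others. Creld2, an ER protein with EGF-like domains that is made under ER stress, had 14.47, 9.63, 14.04 and 14.39. Sdf2l1, a partner of ER chaperone complexes, had 15.41, 11.56, 15.05 and 15.21 and its second probe showed the same order of size, with a range of 3.17. The disulfide isomerase Pdia4 had 13.02, 9.16, 12.33 and 11.78, and Dnajb9, a cochaperone of BiP, 10.71, 6.95, 9.89 and 10.16. Ero1b, which passes oxidizing power to disulfide isomerases, had 8.81, 3.18, 7.87 and 7.47. Its probe was not well above background in culture 2, so it was at least 49.6-fold higher in culture 1 than in culture 2, with the lowest signal well above background of that array as the floor or the probe's own signal where that was higher. P4hb, another disulfide isomerase, was nearer together at 15.70, 13.46, 15.40 and 14.79. Ppib and Sil1 were the members within 2-fold, with ranges of 0.85 and 0.33.

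Degradation of misfolded ER proteins went with folding. Of 13 genes of ER-associated degradation 9 had a named probe, and all 9 were measured. Of these, 8 spanned over 2-fold and 8 passed the number test, against 22.1% and 25.0% of all genes. Over 2-fold were 2 of 9 once culture 2 was left out. Derl3, a membrane protein of the channel that takes misfolded proteins out of the ER, had the largest spread of all genes. Its levels were 15.02, 6.13, 14.54 and 13.99 in wt and 14.48, 6.31, 13.30 and 13.61 in siScramble cultures. That is a 474-fold range in wt, and a second probe of the gene had a log2 range of 9.82. Sel1l, which anchors the ubiquitin ligase Hrd1, had 10.82, 7.04, 10.42 and 9.61. Syvn1, which encodes that ligase, spanned less, with 11.90, 10.29, 11.83 and 11.83. Herpud1 had 14.80, 12.53, 15.04 and 15.47, and unlike most of the chaperones it was highest in culture 4. Edem2 was the member within 2-fold, with a range of 0.49.

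The promoters of these genes are shown because one motif recurs in them. The ER stress response element, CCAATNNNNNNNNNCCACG, is the site through which ATF6 acts with the factor NF-Y. It was searched on both strands in the 250 bases upstream of each gene's start in RefSeq (GRCr8). It was found in 7 of 16 promoters of the measured ER chaperone list (43.8%), those of Calr, Canx, Creld2, Dnajc3, Ero1b, Hsp90b1 and Hspa5, and in that of Derl3 among 7 of the degradation list. Among all 27457 promoters, 21 held it (0.0765%), and of 8090 promoters of genes measured in wt 14 did (0.173%). Among the genes over 2-fold that were lowest in culture 2 it was in 10 of 796 (1.26%), the other two being Xbp1 and Zfand2a, and among measured genes within 2-fold in 3 of 6354 (0.0472%). Capitals below mark the element, which reads in reverse complement in Derl3, Creld2 and the second site of Hsp90b1. The first base of each lies at -154 in Derl3, -145 in Creld2, -43 in Hspa5 and -176 and -72 in Hsp90b1.
Derl3, chr20:12766466-12766715, minus strand: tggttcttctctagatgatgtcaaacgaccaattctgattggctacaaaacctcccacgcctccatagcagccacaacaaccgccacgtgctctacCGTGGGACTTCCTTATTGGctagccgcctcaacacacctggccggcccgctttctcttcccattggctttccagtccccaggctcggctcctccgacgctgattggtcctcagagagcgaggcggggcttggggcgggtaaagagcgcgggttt
Creld2, chr7:121789134-121789383, plus strand: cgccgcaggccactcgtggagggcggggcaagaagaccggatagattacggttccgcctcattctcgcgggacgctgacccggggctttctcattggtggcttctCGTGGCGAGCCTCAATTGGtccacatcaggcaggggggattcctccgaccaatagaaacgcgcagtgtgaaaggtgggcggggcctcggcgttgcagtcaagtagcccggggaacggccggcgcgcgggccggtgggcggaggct
Hspa5, chr3:38452766-38453015, plus strand: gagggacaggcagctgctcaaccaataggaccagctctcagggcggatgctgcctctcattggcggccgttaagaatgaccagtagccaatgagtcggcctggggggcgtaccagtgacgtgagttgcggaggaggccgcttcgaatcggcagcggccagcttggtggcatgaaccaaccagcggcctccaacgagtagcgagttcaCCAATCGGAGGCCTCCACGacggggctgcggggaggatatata
Hsp90b1, chr7:23012294-23012543, minus strand: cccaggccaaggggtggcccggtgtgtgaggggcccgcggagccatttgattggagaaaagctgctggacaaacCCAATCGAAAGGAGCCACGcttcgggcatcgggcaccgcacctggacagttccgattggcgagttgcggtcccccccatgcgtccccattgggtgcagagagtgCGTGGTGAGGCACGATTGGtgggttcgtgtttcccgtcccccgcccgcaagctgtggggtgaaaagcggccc

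Xbp1, the transcription factor of the same response, had 11.33, 9.86, 11.31 and 11.71, and Zfand2a, a stress-induced zinc finger protein, had 11.77, 10.22, 12.23 and 12.66. A match is a description of the letters and not of a bound site.

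Targets of ATF4 and CHOP were also lowest in culture 2 but had another top. Of 30 genes 27 were measured, 19 spanned over 2-fold and 21 passed the number test, against 22.1% and 25.0% of all genes. Culture 2 was the lowest for 20 and culture 4 the highest for 23, against 38.4% and 21.4% of all genes. The means were 11.19, 10.55, 11.45 and 11.74. In siScramble cells culture 2 was the lowest for 21 and culture 4 the highest for 21, against 31.4% and 24.9% of all genes there. Without culture 2 it was 4 of 27 that spanned over 2-fold, and without culture 4 it was 12.

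Ddit3, which encodes CHOP itself, had 15.15, 12.08, 16.15 and 16.24 in wt and 15.68, 11.06, 15.67 and 16.24 in siScramble cultures. Nupr1, a stress-induced nuclear protein, had 10.13, 7.41, 9.69 and 9.85. Ppp1r15a (GADD34), which restores translation after stress, had 12.90, 11.10, 12.98 and 13.47. Chac1, which degrades glutathione, was instead lowest in culture 1, at 8.15 against 9.60, 10.05 and 10.63, and in siScramble culture 1 it was again the lowest, at 8.30 against 8.54, 9.78 and 10.21. Phgdh, the first enzyme of serine synthesis, was bright and within 2-fold, with 15.48, 15.91, 15.67 and 15.98. Atf4 had 14.55, 14.04, 14.79 and 15.07. The aminoacyl-tRNA synthetases, many of which ATF4 induces, differed less. Lowest in culture 2 were 16 of the 17 measured, against 38.4% of all genes. Of the 17, 7 spanned over 2-fold and 14 passed the number test, against 22.1% and 25.0% of all genes. The 7 became 0 without culture 2, 2 without culture 4 and 3 with normexp of the median signals. Levels were 10.11, 8.61, 10.00 and 10.14 for Nars1 and 14.93, 13.93, 14.77 and 14.87 for Wars1.

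The letters TGATGNAAN, a core of the C/EBP-ATF response element to which ATF4 binds, stood in 5 of 25 promoters of the ATF4 and CHOP list (20%), those of Chac1, Nupr1, Pycr1, Slc1a4 and Trib3. They stood in 5 of 15 promoters of tRNA synthetases (33.3%), in 2.05% of the promoters of measured genes and in 3.25% of all promoters. Among the genes over 2-fold that were lowest in culture 2 they stood in 25 of 796 (3.14%). Among measured genes within 2-fold it was 122 of 6354 (1.92%). The element is in capitals in the 2 promoters below, both times in reverse complement, with its first base at -22 in Trib3 and -168 in Chac1. They are shown because these targets differ in their low culture. Trib3, an inhibitor of AKT signalling induced by ATF4 and CHOP, had 12.07, 11.74, 12.68 and 13.04, lowest in culture 2, while Chac1 was lowest in culture 1.
Trib3, chr3:161275534-161275783, minus strand: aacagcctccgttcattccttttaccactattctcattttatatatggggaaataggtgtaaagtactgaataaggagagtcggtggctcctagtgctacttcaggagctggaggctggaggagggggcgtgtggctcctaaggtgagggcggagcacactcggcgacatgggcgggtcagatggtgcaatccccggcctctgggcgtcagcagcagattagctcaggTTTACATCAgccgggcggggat
Chac1, chr3:126795881-126796130, plus strand: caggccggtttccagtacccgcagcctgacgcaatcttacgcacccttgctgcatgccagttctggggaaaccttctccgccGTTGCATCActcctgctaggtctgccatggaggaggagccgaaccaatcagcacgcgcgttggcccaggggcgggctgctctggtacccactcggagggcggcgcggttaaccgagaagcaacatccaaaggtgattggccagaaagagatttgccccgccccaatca

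Cell cycle genes were highest in culture 2. Of 36 such genes 32 had a named probe, and all 32 were measured. Of these, 25 spanned over 2-fold and 24 passed the number test, against 22.1% and 25.0% of all genes. Culture 2 was the highest for 31 of 32 and culture 1 the lowest for 27, against 37.9% and 25.5% of all genes. Their mean levels were 9.08, 10.49, 9.48 and 9.59, and the median member was 2.16-fold higher in culture 2 than in the mean of the others. In siScramble cells culture 2 was the highest for 31 and culture 1 the lowest for 28, against 38.5% and 28.4% of all genes there. Tk1, the thymidine kinase of S phase, had 8.74, 12.29, 10.32 and 10.67, an 11.7-fold range. Rrm2, which makes deoxynucleotides, had 11.72, 13.72, 12.39 and 12.45, and the securin Pttg1 had 11.12, 13.34, 11.71 and 11.67. Ccnd1 stood out among them with 12.27, 12.34, 12.42 and 12.36, a range of 0.16. H1f5, a linker histone outside this list, had one of the 25 largest SDs, with 6.51, 10.90, 7.89 and 8.38. Without culture 2, 1 of the 32 cell cycle genes spanned over 2-fold, against 4.13% of all genes. Cholesterol synthesis genes were also highest in culture 2 for 17 of 24, against 37.9% of all genes. Of the 24, 11 spanned over 2-fold and 14 passed the number test, against 22.1% and 25.0% of all genes. Once culture 2 was left out, 2 of the 24 spanned over 2-fold, against 4.13% of all genes. Dhcr7, a late enzyme of the path, had 5.81, 9.09, 7.02 and 6.56, while Msmo1 was within 2-fold at 14.36, 14.09, 14.27 and 13.93.

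**Figure D2:**
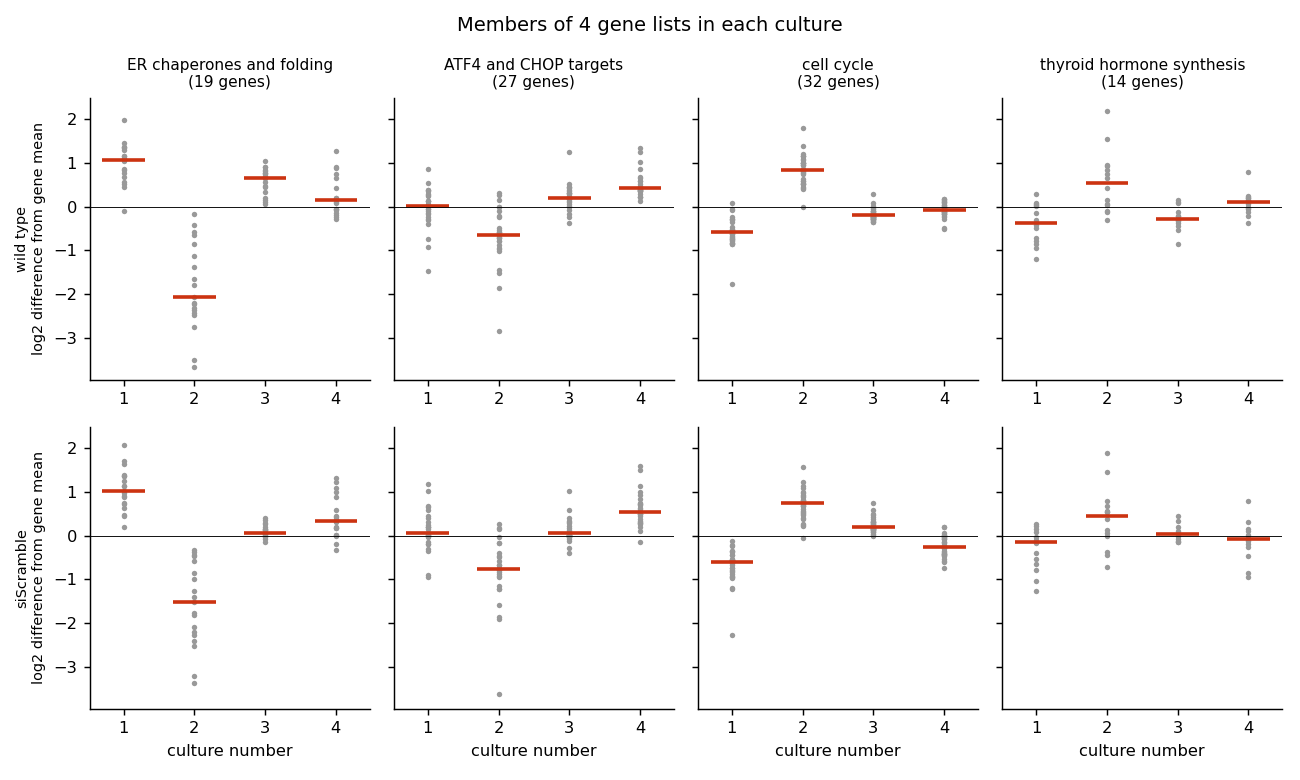
Grey points are the log2 differences of single genes from their mean over the 4 cultures of a condition, wt in the upper row and siScramble in the lower, and red bars are medians over the genes of a list. ER chaperones and ATF4 and CHOP targets are low in culture 2 and cell cycle genes are high in it, in both conditions.

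Thyroid genes differed between cultures in part of the pathway. Of 20 genes of thyroid hormone synthesis 14 were measured, 8 spanned over 2-fold and 7 passed the number test, against 22.1% and 25.0% of all genes. Without culture 2 it was 4 that spanned over 2-fold. Culture 2 was the highest for 8 and culture 1 the lowest for 8, against 37.9% and 25.5% of all genes. The iodide transporter Slc5a5 (NIS) was within 2-fold at 12.95, 13.28, 13.35 and 13.45. Duox2, the main source of hydrogen peroxide for the iodination of thyroglobulin, had 7.42, 10.79, 7.75 and 8.48, a 10.4-fold range (limma, adjusted p = 0.0396 for the number). Its maturation factor Duoxa2 had 3.96, 6.27, 4.19 and 4.52. Culture 2 lay above the other cultures for both.

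Duox1 had 8.28, 9.58, 8.46 and 8.72, and Duoxa1, within 2-fold, 7.84, 8.41, 7.76 and 7.92. The receptor Tshr had 9.87, 10.51, 9.33 and 9.40, a 2.27-fold range, while a second probe of it ranged over 0.56 only. Dio1, which converts T4 to T3, had 8.29, 10.16, 9.0 and 9.45. The chloride channel Ano1 had 9.74, 10.81, 9.91 and 10.22, and the potassium channel subunit Kcne2 7.60, 8.36, 8.19 and 9.09. Its partner Kcnq1 at 5.86, 5.68, 5.91 and 5.79 and the monocarboxylate transporter Slc5a8 at 11.52, 11.13, 10.91 and 11.38 were within 2-fold. The anion exchanger Slc26a4 (pendrin), Iyd, Dio2, Dio3, Slc16a10 and Cga were not well above background on enough arrays.

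All 3 thyroid transcription factors that define the follicular cell were measured. Pax8 had 10.84, 12.37, 11.27 and 11.66 (limma, adjusted p = 0.0395), Foxe1 11.92, 12.84, 11.87 and 12.37 (limma, adjusted p = 0.0988) and Nkx2-1 11.70, 11.90, 11.54 and 11.35 (limma, adjusted p = 0.0488). Each was highest in culture 2, and only Pax8 of them spanned over 2-fold. Hhex, a homeobox factor of thyroid development, had 11.00, 13.54, 12.70 and 13.39, so that culture 1 lay apart below the others (limma, adjusted p = 0.0306), and in siScramble cells it had 11.39, 13.39, 13.09 and 12.97. Nkx2-5 was dim at 4.90, 4.02, 5.20 and 5.11. These p-values are from the test over 8 channels, which calls no probe once number 1, 2 or 4 is left out. They are therefore descriptions, as the counts are.

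**Figure D3:**
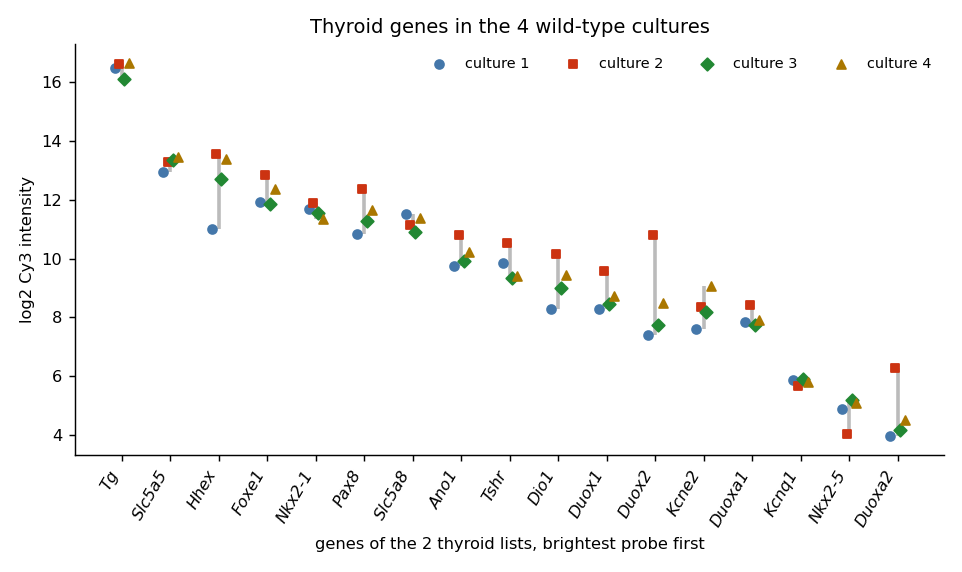
The y axis gives log2 Cy3 intensity in each of 4 wt cultures for 17 of the 19 measured genes of both thyroid lists, and grey bars span the lowest to the highest culture. Tg and Slc5a5 lie close together in all cultures, whereas Duox2 reaches 10.79 in culture 2 against 7.42 to 8.48 in the others.

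Signalling below the TSH receptor held both steady and variable genes. Of 25 genes of cAMP and TSH signalling 23 had a named probe and 21 were measured. Of the 21, 7 spanned over 2-fold (33.3%) and 7 passed the number test, against 22.1% and 25.0% of all genes. Without culture 2 it was 4 that spanned over 2-fold. Gnas and the regulatory subunit Prkar1a were within 2-fold, the latter at 13.98, 13.83, 14.10 and 14.12, while another regulatory subunit, Prkar2b, spanned 3.08-fold at 7.90, 9.53, 8.03 and 8.07. The cAMP-responsive genes Crem, Fos, Junb and Egr1 were within 2-fold. Nr4a1, Nr4a2, Sik1 and Pde4d spanned more, at 3.27-fold, 2.74-fold, 2.68-fold and 2.27-fold. Nr4a2 was lowest in culture 2, at 8.12, while Nr4a1, Sik1 and Pde4d were lowest in culture 1. The cAMP-induced receptor Nr4a3 had 3.24, 4.94, 4.68 and 5.47 and the phosphodiesterase Pde4b 3.52, 5.45, 5.13 and 5.37. Both were lowest in culture 1, and in siScramble culture 1 they were again lowest, at 2.82 and 3.89. Of the thyroglobulin proteases only Ctsl spanned over 2-fold, at 15.67, 14.33, 15.51 and 15.53.

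Of the 25 genes with the largest SD, 22 were lowest in culture 2 and 3 in culture 1, against 38.4% and 25.5% of all genes. The 25 were chosen by the SD of these same values, so these counts only describe them. The smallest SD among them was 1.686, in Dnajb9, and the first gene outside, Slco1b2, had 1.681. Of these, 7 belong to the lists of ER folding and degradation and Ddit3 to that of ATF4 and CHOP. Lcn2, an iron-binding lipocalin, had 8.16, 3.26, 8.06 and 7.60, and 7.42, 3.58, 6.69 and 6.91 in siScramble cells. Cox6a2, the muscle form of a cytochrome c oxidase subunit, had 10.92, 5.70, 10.00 and 9.80. Gmppb, which makes the mannose donor of glycosylation, had 10.84, 7.45, 11.10 and 11.00. In all of them culture 2 lay clear below the others.

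The keratin Krt17 had 7.15, 3.03, 6.22 and 7.62 and was not well above background in culture 2, so that it was at least 24.1-fold higher in culture 4. Slfn4 had 8.34, 4.36, 7.66 and 7.20, and the adhesion protein Amigo3 6.82, 4.34, 7.25 and 8.47. Ankrd37, a target of hypoxia signalling, had 9.01, 6.26, 9.78 and 9.96. Nppc, the C-type natriuretic peptide, behaved otherwise, with 4.98, 8.36, 8.26 and 9.0 in wt and 5.45, 8.12, 8.48 and 9.16 in siScramble cells, low in culture 1 of both. Aspg, an asparaginase, was lowest in culture 1 too, at 2.84 against 7.06, 4.72 and 6.04, and was not well above background there.

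Dim genes among the 25 did not all repeat. Of the 15 that were well above background on 4 arrays, 15 had the same lowest number in siScramble cells. Of the 10 that were not well above background on 1 array it was 6, against 60.5% of all genes. Hoxc5 had 5.07, 0.97, 4.86 and 4.68 in wt but 1.00, 3.84, 3.52 and 1.56 in siScramble cells. Ttll13, Slc45a2 and Mup4l4 were lowest in wt culture 2, at 1.57, 2.72 and 0.95, and highest in siScramble culture 2, at 5.04, 5.35 and 3.32. Tacr2, Adap2 and Cyp4b1 had their lowest value in culture 2 of both conditions, but at 1.37, 0.98 and 1.45 in wt they had no level well above background there. In the 100 genes of largest SD, 49 were not well above background on 1 array, against 4.48% of all genes. Of the 51 above it on all 4 arrays 40 had the same lowest number in siScramble cells. Of the 49 it was 23, a share below the 60.5% of all genes.

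**Figure D4:**
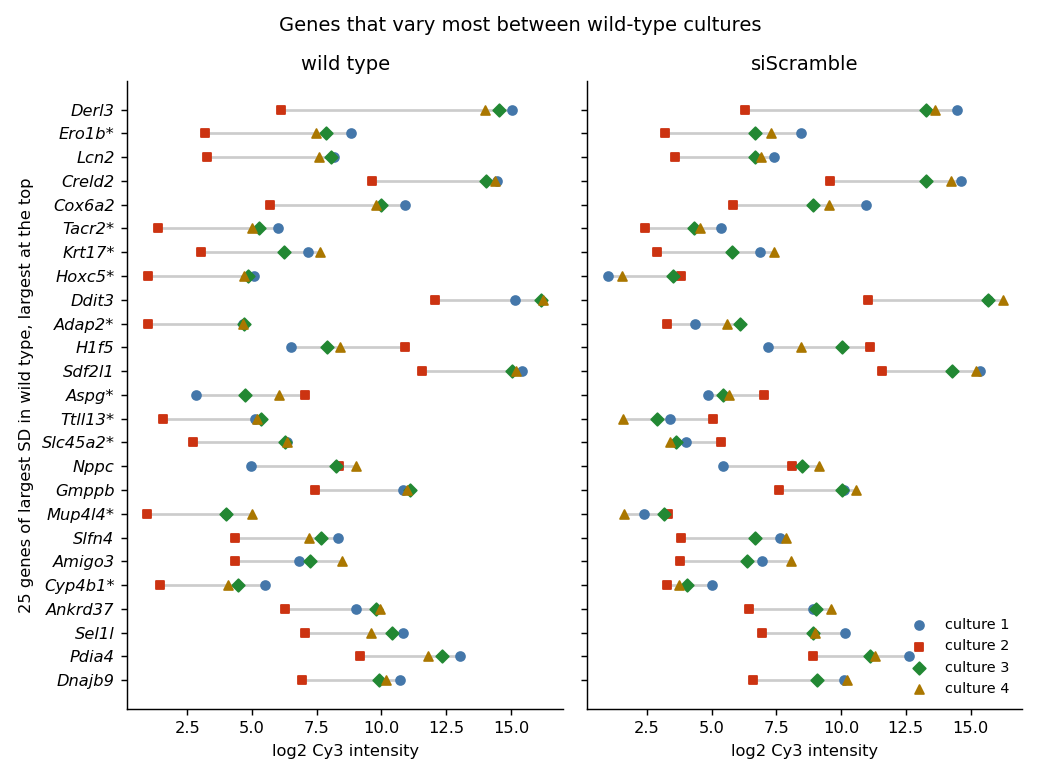
Log2 Cy3 intensity of the 25 genes with the largest SD between wt cultures, in wt on the left and on siScramble arrays on the right, with 1 symbol per culture number. An asterisk marks the 10 genes not well above background on 1 wt array. Culture 2 is the lowest wt culture for 22 of the 25, against 38.4% of all genes.

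Several groups lay below the share of all genes, 22.1%, and others above it. By the brightest probe of each gene, none of 33 ribosomal protein genes and none of 12 heat shock genes outside the ER lists spanned over 2-fold. Of them, 0 and 2 passed limma's number test at an adjusted p of 0.05, against 25.0% of all genes. Hspa8, the constitutive cytosolic Hsp70, had 16.35, 15.70, 16.21 and 15.86. Its dimmer measured probes ranged over 1.05, 0.88 and 1.21 on the log2 scale, each lowest in culture 2. Bag3 had 11.15, 10.36, 11.02 and 11.29. Of 24 genes of oxidative phosphorylation 1 spanned over 2-fold, Cox7a2 at 13.11, 14.25, 13.17 and 13.20. Of 13 translation factors it was 1, Eif4a2 at 13.05, 12.05, 13.21 and 13.53. Of 22 NRF2 and glutathione genes it was 3, among them the haem oxygenase Hmox1 at 12.36, 10.08, 12.46 and 12.31 and Txn1 at 14.26, 15.29, 14.62 and 14.68. Glycolysis and hypoxia genes spanned over 2-fold in 8 of 25, with P4ha1, a collagen prolyl hydroxylase, at 9.37, 6.99, 9.02 and 8.43. The number test was passed by 8 of the 25, against 25.0% of all genes. Leaving out culture 2 left 3 over 2-fold, against 4.13% of all genes.

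Interferon-stimulated genes spanned over 2-fold in 12 of 26 (46.2%), against 22.1% of all genes, while 5 of 26 passed the number test, against 25.0%. Leaving out culture 2 left 5 over 2-fold, against 4.13% of all genes. Ifi27 was bright and within 2-fold, at 13.58, 14.09, 13.87 and 13.66, as was Oas1b with a mean of 13.14. The most variable, Oasl and Ifit3, were dim, with means of 4.70 and 3.82. Cytoskeletal genes spanned over 2-fold in 7 of 20, or 0 without culture 2, Tuba1a at 13.07, 14.55, 13.44 and 13.35 among them, extracellular matrix genes in 5 of 15, Ccn1 at 8.79, 10.62, 10.18 and 10.53, and MHC class II genes in 1 of 7. Among 12 measured epithelial genes 4 did, with Cdh16 at 7.41, 9.67, 8.20 and 9.16 and the tight junction protein Tjp3 at 13.08, 11.60, 12.85 and 12.86.

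**Figure D5:**
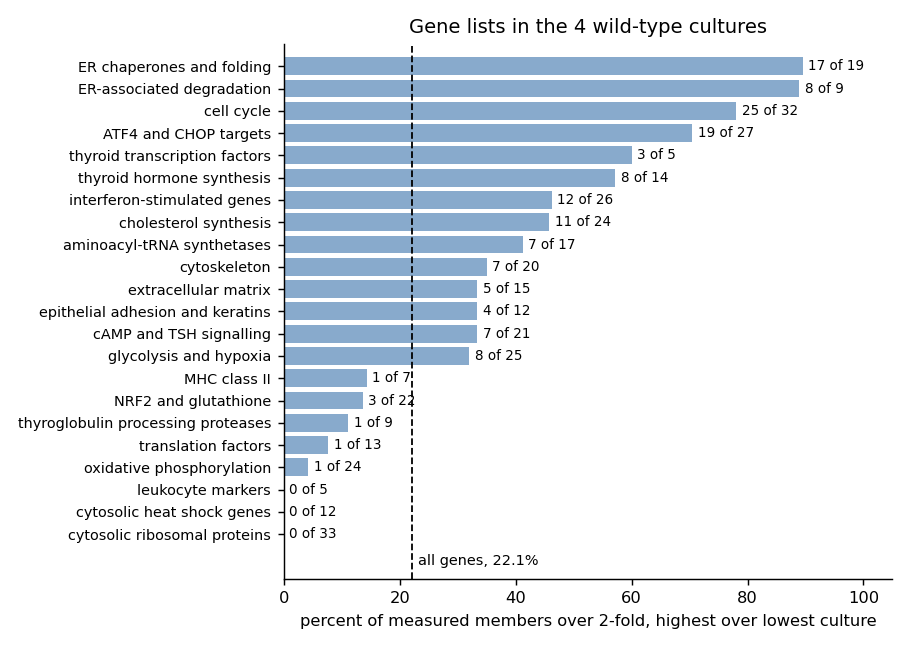
Bars give the percent of measured members that spanned over 2-fold between the highest and the lowest wt culture, for gene lists with at least 5 measured members, and the dashed line gives the share over all genes, 22.1%. The 2 ER lists, cell cycle and ATF4 and CHOP targets have the highest shares. Ribosomal protein and heat shock genes are at 0, each gene by its brightest probe.

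Among cultures 1, 3 and 4 alone, 326 genes that were well above background in all 3 spanned over 2-fold. Culture 1 was the lowest of the 3 for 173 of them and culture 4 the highest for 192. The matching shares over all genes are not given here, so these counts only describe the 326 genes. The largest SD among them was that of Nppc. Hhex, Chac1 and Nr4a3 were among the first 10, and so were Pde10a, a phosphodiesterase, at 7.94 in culture 1 against 9.96 and 10.08, and Crym, a thyroid hormone binding protein, at 4.34 against 6.03 and 6.67. These genes, chosen after their values were seen, were lowest in culture 1 of the siScramble cells as well, at 8.15 for Pde10a and 5.49 for Crym. Atg16l2, with 9.14, 8.04, 11.57 and 9.06 in wt, did not repeat its high value in siScramble culture 3, which was at 8.29.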

How the data were processed

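The authors read 2-colour Agilent rat arrays with the software Feature Extraction (version 10.7.3.1), and the submitters' notes also name limma 3.2.3. The deposited spot intensities are processed signals that this software had background-subtracted and dye-normalized against the other channel, beside median spot and background intensities. The log10 ratio of Cy5 over Cy3 that the authors deposited was used for the Foxe1 check only. A separate table of the authors' normalized ratios was not used. Cy3 intensities of the 4 wt channels were averaged over the spots of a probe, without control and outlier spots (0.771 to 0.986%), quantile normalized and taken to log2. A probe needed a share of at least 0.5 of its spots well above background on 3 arrays. A gene was represented by its brightest measured probe. The siScramble channels, normalized together with the wt channels as 8, gave siScramble levels for comparison and entered the test of the culture number. That test used limma 3.58.1 with R 4.3.3 and the package data.table (1.17.8). The test was tried on simulated data with part of 18399 probes changed, and it called 72.3% of changes of log2 1, 89.35% of changes of log2 2 and 1.19% of unchanged probes.

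The cultures and the 25 gene lists were chosen with earlier results of these data known, so counts over lists are descriptions. Named genes were the 25 brightest, the 25 of largest SD and the 10 of smallest SD in the upper quartile of level. They also were all members of both thyroid lists and, from each other list, 2 of largest range and 2 of highest mean. Some genes that this rule takes in are not reported here. Genes named outside this rule were chosen after their values were seen. Same-numbered wt and siScramble cultures were treated as pairs because their deviations correlated at over 0.1 in each of the 4 pairs. For number 3 this was narrow (0.103), and it was 0.088 with outlier spots kept. The number test used the same channels as these correlations, so its counts and p-values are no separate evidence for the pairing. Alternatives were another signal, scaling, probe filter, outlier rule, probe choice, variance model and leaving out each culture. Promoters came from RefSeq for GRCr8. The array is annotated on another build, so no probe positions are given. Counting and plotting used matplotlib 3.10.9, numpy 2.4.6 and pandas 2.3.3 in Python 3.11.15.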

Additional observations from a re-analysis of the deposited data

Results flagged for a closer look

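In groups of 4 values, a culture was marked when its gap to the nearest other culture as a share of the whole range was above Dixon's critical value, which chance does in about 1 of 20 groups. Among 44 genes named for their level or spread 9 met this, and among all 9811 measured genes 904 did (9.21%). All 9 are among the 25 genes chosen for the largest SD of these same values, so the marks only describe them. Culture 2 lay apart, below the other cultures, for all 9. The share was 0.884 for Derl3, 0.909 for Creld2, 0.907 for Sdf2l1, 0.930 for Gmppb and 0.887 for Lcn2, which were well above background in all 4 cultures. It was 0.904 for Hoxc5, 0.983 for Adap2, 0.938 for Ttll13 and 0.979 for Slc45a2, which were not well above background in culture 2, so that these shares rest on a value that is no measured level. Of 23 list means 3 met it, those of ER-associated degradation (0.854), thyroglobulin processing proteases (0.866) and translation factors (0.892). Culture 2 was the low one in each, with 9.24 against 11.38 to 11.74 for ER-associated degradation.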

How the results depend on the processing

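Over all alternatives, 51 of the recomputed main values stayed within 1.5 times of a count, or within the spread of a value, and 18 moved. Counts and spreads have no sign that could turn, and the mean same-numbered correlation stayed positive, at 0.206 to 0.575. Normexp of the Cy3 median signals, which adds an offset of 50 and so narrows dim differences, gave a median SD of 0.178, 921 genes over 2-fold (9.39%), 6447 probes called by the number test in limma and 41 shared genes among the 100 of largest SD. There, 17 of 19 ER chaperones, 8 of 9 degradation genes and 22 of 32 cell cycle genes still spanned over 2-fold, but 3 of 17 tRNA synthetases in place of 7. Requiring all 4 arrays well above background kept 51 of the 100. With no filter there were 30356 probes and 15152 genes, 4021 genes over 2-fold, 36 of the 100, and 0 probes called by limma, with 7827 at an unadjusted p under 0.05. An intensity trend with robust variances called 6810 probes. Leaving out each culture in turn gave a median SD of 0.164 to 0.291, 21 to 88 shared genes of the 100, 443 to 2081 genes over 2-fold and 0 to 4871 probes called. The lowest median SD, share and count over 2-fold were those without culture 2, and within the same table, an alternative chosen after seeing the data, it was 405. Of the 25 brightest genes 22 to 25 stayed among the 25. With outlier spots kept, the lowest same-numbered correlation was 0.088, against 0.103 to 0.169 otherwise, and so under the limit of 0.1 set for treating the numbers as pairs. No paired analysis was possible because the wt cultures are 1 group, and the replicate number is itself the tested factor, so it could not also be a block. Signal over background limits the dim genes: 440 were not well above background in 1 culture.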
